A study of Danio rerio with 6 samples.

Results

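The genes described here encode enzymes that make and use glutathione, or that remove superoxide and peroxides, together with the Nrf2 and Keap1 genes that regulate many of them in vertebrates. They were the rows of the deposited expression table whose gene symbol belonged to the glutathione transferase, glutathione peroxidase, peroxiredoxin, thioredoxin reductase or superoxide dismutase families, or was one of a short list of single genes such as catalase (cat), glutathione reductase (gsr) and NAD(P)H quinone dehydrogenase (nqo1). The rule used gene symbols and no measured value, though it was chosen with earlier results of these data known. It found 47 of the 24923 genes in the table, and 1 symbol of the rule, hmox1b, had no row.

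Glutathione is a small thiol that cells make from glutamate, cysteine and glycine. Glutathione transferases couple it to reactive compounds, glutathione peroxidases use it to reduce peroxides, and peroxiredoxins do the same with electrons that mostly come from thioredoxin. When Keap1 is modified by oxidants or electrophiles it stops directing Nrf2 to degradation, and Nrf2 then raises transcription of many of these genes. In the zebrafish tail fin a cut is followed within minutes by hydrogen peroxide made by the dual oxidase Duox in the epithelium, so the same tissue makes peroxide and carries the enzymes that remove it.

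Tail fin tissue was taken from zebrafish larvae kept in 8 μM sunitinib, which inhibits several receptor tyrosine kinases, with 0.1% DMSO, or with 0.1% DMSO alone. All larvae of both groups were placed in their solution at 2 days post fertilization (dpf), had the tail fin amputated at 3 dpf and gave tissue 6 h after amputation. Each group had 3 biological replicates, and each replicate pooled tail fin tissue from more than 60 larvae. The labels name the AB strain and the Tg(MPEG-GFP) line without saying which of them gave these samples. No uninjured fin was part of the comparison, so every value describes tissue taken after amputation. The RNA came from the whole tissue, in which fewer cells of a type and less RNA per cell cannot be told apart.

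The 6 libraries held between 13394060 and 15294706 estimated reads. DMSO replicate 1 was the most distant library. Its read counts differed from those of the others by a chi-square of 35.3 to 61.3 per degree of freedom, and pairs without it differed by 8.65 to 24.8. Epidermal markers were abundant, and the 12 listed summed to 15260 to 17280 TPM, a transcript level scaled to gene length and library total, with DMSO and to 16200 to 20960 with sunitinib. Skeletal muscle markers (18 listed) summed to 158500 TPM in DMSO replicate 1 and to 219800 to 246200 in the other libraries. Hepatocyte markers (16 listed) summed to 6743 to 10310 TPM over the 6 libraries, and intestine markers (10 listed) to 1228 to 1604. Some lists had sums that did not overlap and were lower with sunitinib. Mucous cell markers (7 listed) summed to 97.9 to 177.5 TPM with DMSO and 45.0 to 68.6 with sunitinib. Endothelial markers (14 listed) had 44.8 to 52.6 and 28.3 to 43.0. Notochord markers (10 listed) had 824.3 to 1007 and 655.2 to 813.4. Pigment cell markers, given below, were lower too. How much tissue other than fin the samples held was not tested, so a value cannot be assigned to fin cells alone. Fold changes also followed gene length, with a Spearman correlation of -0.40 between log2 fold change and effective length across the tested genes, which are not independent replicates.

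At the level of single genes, none of these antioxidant genes passed an adjusted p of 0.05 in edgeR's quasi-likelihood test, and none of the 17309 tested genes did (0.0%). Of the 47, 43 had enough reads to be tested. At an unadjusted p under 0.05, 7 were higher and 1 was lower with sunitinib. The higher genes were nqo1, gpx1a, gsta.1, gstz1, gstm.3, prdx6 and sod3b, and the lower gene was gss. The 7 higher genes were 16.3% of those tested, where 7.51% of all tested genes were higher by the same criterion and 6.12% were lower. Of the 7, sod3b passed the low-count filter only through its sunitinib libraries. With at least 10 counts required in every library, 6 of 41 were higher and 1 was lower. In that fit 1222 of all 15874 tested genes were higher and 990 were lower. DESeq2 called 1 of the 47 at an adjusted p under 0.05, nqo1, where it called 0.176% of 24417 genes, and gave 6 of them an unadjusted p under 0.05 with a higher value (4.45% of all genes). Without DMSO replicate 1, edgeR still passed none at an adjusted p of 0.05 (0.017% of all genes passed). An unadjusted p under 0.05 was then reached by 8 with a higher and 0 with a lower value (6.91% of all genes were higher and 5.65% lower). By reads scaled to TMM-adjusted library size, that library was the lowest of the 6 for 20 of the 43 (46.5%, against 25.2% of all tested genes). It was the highest for 9 (against 25.9%).

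The direction was uneven between families. Log2 fold changes were positive for 33 of the 43 tested genes and negative for 10, their median was 0.20, while 49.5% of all tested genes were positive with a median of -0.0041. With at least 10 counts required in every library, 31 of 41 were positive, and 7849 of all 15874 tested genes were. All 14 tested glutathione transferase genes with a gst symbol were positive, with a median of 0.41. Microsomal glutathione transferases lie outside the symbol rule, and mgst2, which is 1 of them, was negative at -0.70. The count of 14 positive genes depends on the low-count filter. Without the filter, and also with DESeq2, 15 of 17 were positive, with a median of 0.39, and gstk2 and gstk4, which have few reads, were negative. The log2 medians were 0.20 for the peroxiredoxins and sulfiredoxin, 0.25 for the superoxide dismutases and catalase, and 0.03 for the glutathione peroxidases. They were -0.08 for Nrf2, Keap1 and their marker targets and -0.02 for glutathione synthesis and recycling. By reads scaled to TMM-adjusted library size, the groups did not overlap for 8 genes that were higher with sunitinib (18.6% of the 43, against 9.15% of all tested genes). The same held for 1 gene that was lower, txnrd1 (10.8% of all tested genes were). The 8 include gsto2 and sod3b. sod3b has few reads and was tested only through its sunitinib libraries, the group where it is high, so its place among the 8 carries no weight. In TPM the groups overlapped for gsto2 and for txnrd1. Those numbers are descriptions of a chosen list, and no test was made of the list as a whole.

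**Figure D1:**
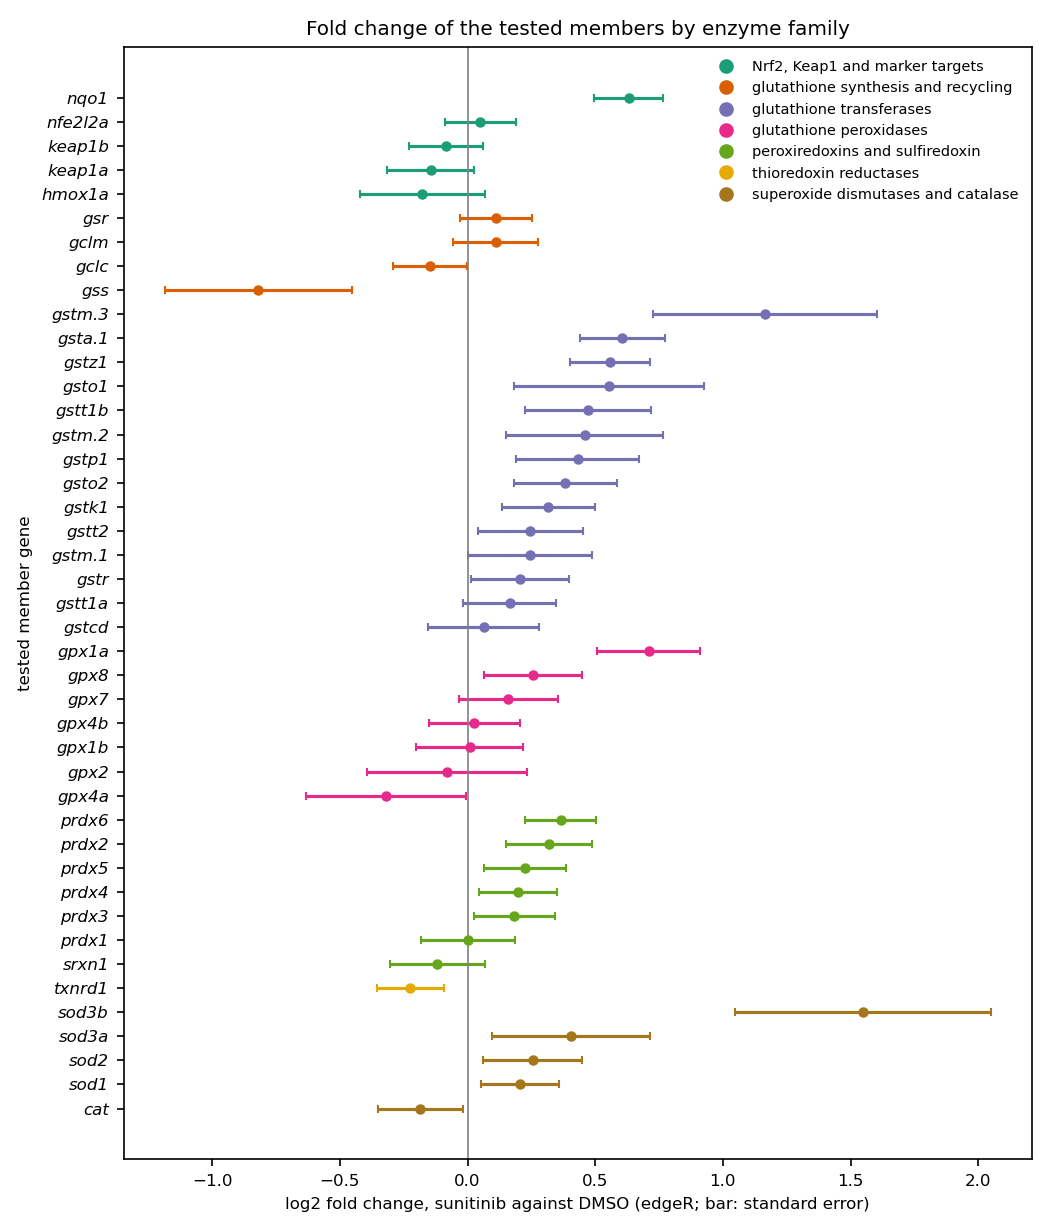
Log2 fold change of sunitinib against DMSO (x axis) for each of the 43 tested genes (y axis), coloured by enzyme family; bars are edgeR standard errors. All 14 tested glutathione transferases with a gst symbol lie to the right of 0, while the Keap1 genes, gclc, gss and txnrd1 lie to the left.

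Gene length moves with this pattern. Effective length, the gene length that links the deposited counts to the deposited FPKM, was below the median of all tested genes (2052 bases) for 37 of the 43 genes. Among those 37, 32 were positive (86.5%) and 7, or 18.9%, were among those higher at an unadjusted p under 0.05. The 7 include sod3b, and the 32 include sod3b and gsto1, which passed the low-count filter through their sunitinib libraries. gss, among the negative ones, passed it through its DMSO libraries. Among all 8654 tested genes shorter than the median, 66.6% were positive and 12.6% were higher. The 6 longer genes had a median log2 fold change of -0.13, and all 8655 longer genes had -0.11. With the trend on length entered as an offset, the median of the 43 genes was 0.04 and 24 were positive (8636 of all 17309). Positive were 13 of 14 transferases, 2 of 7 glutathione peroxidases and 2 of 7 peroxiredoxins and sulfiredoxin. So were 3 of 5 dismutases and catalase, 2 of 5 Nrf2, Keap1 and marker genes, 2 of 4 synthesis genes and not txnrd1. At an unadjusted p under 0.05, 6 of the 43 were higher, sod3b among them, and 1 was lower. Of all tested genes 5.7% were higher and 5.75% lower. The part that length has in any single gene's value was not tested.

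**Figure D2:**
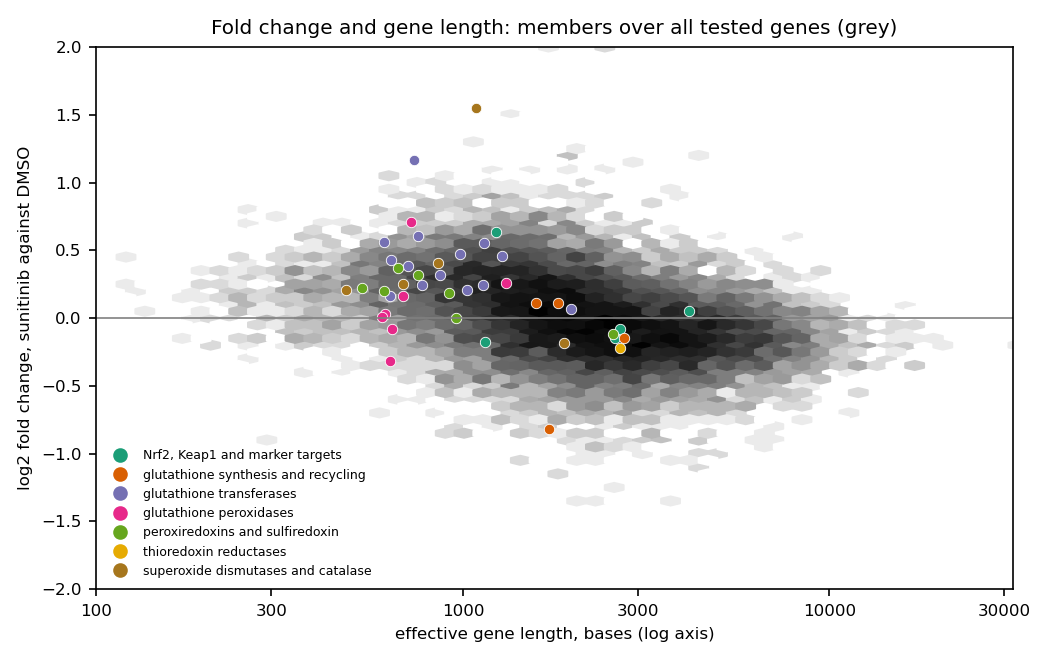
Log2 fold change (y axis, values beyond 2 in either direction drawn at that edge) against effective gene length in bases (x axis, log scale). The 17309 tested genes are grey, darker where denser, and the 43 antioxidant genes are coloured by family. Any gene with a length beyond the ends of the x axis is not shown. The grey cloud falls from left to right, and 37 of the 43 genes lie left of the median length of 2052 bases.

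Levels between genes are compared here in TPM, which is scaled by gene length. The 47 genes together took 0.274% to 0.323% of all TPM in a library. gstp1, a pi-class glutathione transferase, was the most abundant, with a mean over the 6 libraries of 650.7 TPM and a range of 361.8 to 769.6. prdx2, a cytosolic peroxiredoxin that is abundant in red blood cells, followed with 418.4 TPM (317.6 to 468.4). gpx4b and gpx4a, which encode the peroxidase that reduces lipid hydroperoxides in membranes, had 339.0 TPM (297.2 to 393.6) and 275.8 TPM (197.4 to 523.9). gstp1 was above prdx2 in 6 of 6 libraries, prdx2 was above gpx4b in 5 and gpx4b above gpx4a in 5, with DMSO replicate 1 the exception both times. The ranges of prdx2, gpx4b and gpx4a over the 6 libraries overlapped because of DMSO replicate 1. In the other libraries prdx2 was at 422.8 to 468.4 TPM, gpx4b at 297.2 to 342.4 and gpx4a at 197.4 to 265.0, ranges that did not overlap. No test was made between genes. The next were sod1 (157.8 TPM), prdx5 (152.8) and prdx3 (147.4), whose ranges overlapped, and then gstt1a (101.3), sod2 (88.1) and gpx1a (80.1), whose ranges overlapped too. At the other end, 4 genes did not pass the low-count filter of the main fit. gstp2 had 2, 1 and 2 reads with DMSO and 2, 3 and 3 with sunitinib, gstk4 had 2, 4 and 4 reads against 2, 1 and 1, gstk2 had 1, 2 and 0 against 0, 1 and 0, and gpx3 had 2, 0 and 0 against 3, 1 and 0. The edgeR fit without a filter and DESeq2 did test these 4 genes, and none reached an unadjusted p under 0.05. The groups of gstp2 did not overlap in normalized CPM (reads scaled to TMM-adjusted library size) but overlapped in TPM. With so few reads, no difference can be read from these 4 genes.

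**Figure D3:**
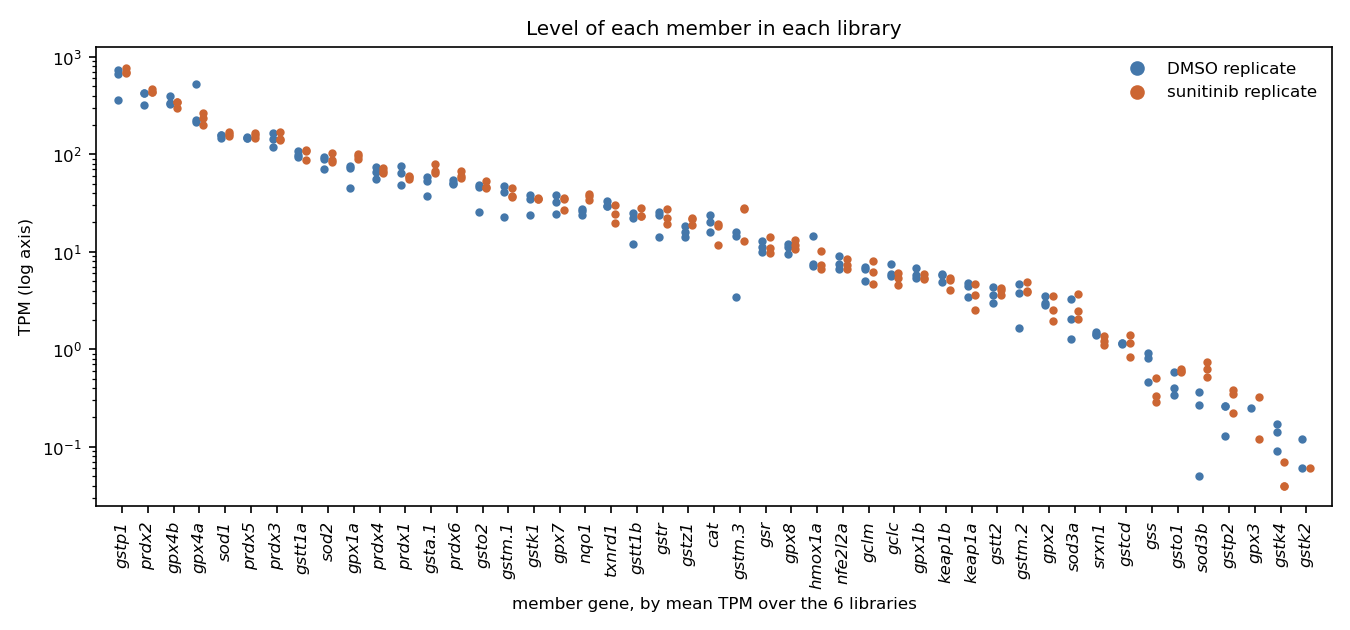
TPM (y axis, log scale) of each of the 47 genes in each library (blue, DMSO; orange, sunitinib), ordered by mean TPM; a library in which a gene has 0 TPM has no point. gstp1, prdx2, gpx4b and gpx4a are the 4 most abundant, and single low blue points in gstp1 and gstm.3 and a high one in gpx4a are DMSO replicate 1.

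Nrf2 and Keap1 transcripts differed little between the groups. nfe2l2a, which encodes the Nrf2 transcription factor, was at 44.8, 34.6 and 36.8 normalized CPM (reads scaled to TMM-adjusted library size) in DMSO replicates 1 to 3 and at 41.8, 39.1 and 39.2 with sunitinib. The sunitinib values lay inside the DMSO range, and the log2 fold change was 0.05 ± 0.14 (standard error, SE, edgeR adjusted p = 0.890). keap1a, one of the Keap1 genes that zebrafish carries, was at 14.9, 11.01 and 13.7 normalized CPM with DMSO and 10.1, 13.5 and 12.2 with sunitinib. keap1b was at 16.1, 19.1 and 18.8 with DMSO and 16.9, 15.3 and 18.7 with sunitinib. The groups overlapped for both, with log2 fold changes of -0.14 and -0.08 (SE 0.17 and 0.15).

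nqo1, a quinone reductase and a widely used Nrf2 target, was higher in every sunitinib replicate than in any DMSO replicate. It was at 35.7, 41.2 and 38.3 normalized CPM with DMSO and at 64.7, 53.7 and 60.1 with sunitinib. The means were 38.4 ± 2.75 (SD, n = 3) and 59.5 ± 5.52 (SD, n = 3), a ratio of 1.55 and a log2 fold change of 0.63 ± 0.14 (SE, edgeR adjusted p = 0.200). DESeq2 gave an adjusted p of 0.0276. With the length trend as an offset the log2 fold change was 0.50 ± 0.12 (SE). nqo1 kept an unadjusted p under 0.05 in all 16 fits, the main one and its alternatives. The haem oxygenase gene hmox1a, whose product degrades haem and which is another common Nrf2 target, did not follow it. hmox1a was at 20.05, 10.5 and 9.74 normalized CPM with DMSO and 12.9, 12.8 and 9.83 with sunitinib. Its log2 fold change of -0.18 ± 0.25 (SE) became 0.23 without DMSO replicate 1, the highest library.

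**Figure D4:**
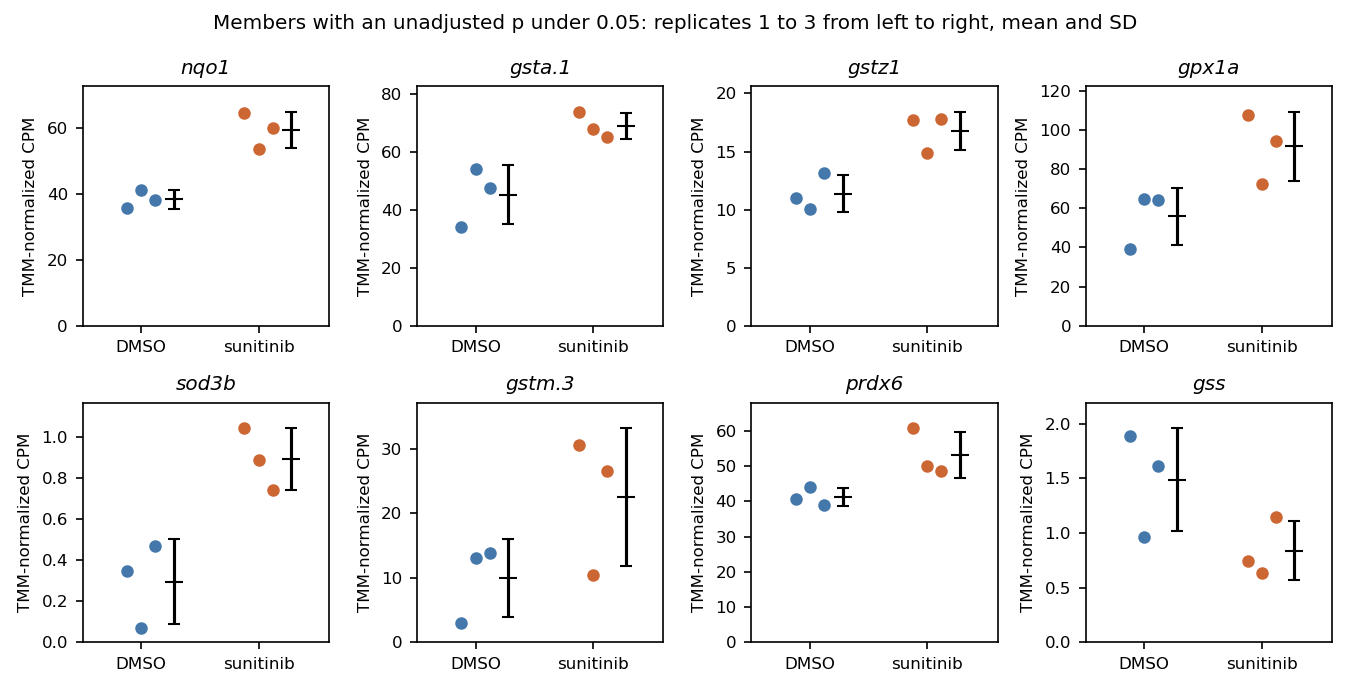
TMM-normalized CPM (y axis, from 0) of the 8 genes with an unadjusted p under 0.05, with replicates 1 to 3 from left to right in each group and the mean and SD (n = 3) beside them. The groups are apart for nqo1, gsta.1, gstz1, gpx1a, sod3b and prdx6, and overlap for gstm.3 and gss. The genes were chosen by p on these same values, which favours groups that are apart. Of all tested genes, 9.15% had groups apart and higher and 10.8% apart and lower. sod3b passed the low-count filter only through its sunitinib libraries.

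The genes that make and recycle glutathione had no common direction. gclc, the catalytic subunit of the rate-limiting glutamate-cysteine ligase, was at 24.5, 19.9 and 18.7 normalized CPM with DMSO and 19.2, 18.4 and 19.4 with sunitinib, a log2 fold change of -0.15 ± 0.15 (SE, edgeR adjusted p = 0.653). gclm, its modifier subunit, was at 9.57, 12.9 and 12.97 with DMSO and 11.5, 14.2 and 12.5 with sunitinib, a log2 fold change of 0.11 ± 0.17 (SE), which was -0.02 without DMSO replicate 1. gsr, which returns oxidized glutathione to its reduced form, had 0.11 ± 0.14 (SE). In all 3 the groups overlapped.

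gss, glutathione synthetase, makes the final step of the synthesis and was lower at an unadjusted p under 0.05. It had 27, 14 and 24 reads with DMSO and 10, 10 and 17 reads with sunitinib. In normalized CPM this was 1.49 ± 0.47 (SD, n = 3) and 0.84 ± 0.27 (SD, n = 3), a log2 fold change of -0.82 ± 0.37 (SE, edgeR adjusted p = 0.356). The groups overlapped, since DMSO replicate 2 lay below sunitinib replicate 3. The gene passed the low-count filter through its DMSO libraries, and DESeq2 did not give it an unadjusted p under 0.05. The value was -1.10 when sunitinib replicate 3 was left out and -0.62 when DMSO replicate 1 was.

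Among the glutathione transferases, gsta.1, of the alpha class, was at 34.1, 54.2 and 47.8 normalized CPM with DMSO and 74.0, 68.2 and 65.1 with sunitinib. All 3 sunitinib values lay above all DMSO values. The means were 45.4 ± 10.3 (SD, n = 3) and 69.1 ± 4.51 (SD, n = 3), a log2 fold change of 0.61 ± 0.17 (SE, edgeR adjusted p = 0.285). gstz1, the zeta-class enzyme that isomerizes maleylacetoacetate in tyrosine breakdown, was at 10.97, 10.04 and 13.2 normalized CPM with DMSO and 17.7, 14.9 and 17.8 with sunitinib. Its groups were apart as well, with a log2 fold change of 0.56 ± 0.16 (SE, edgeR adjusted p = 0.286). Both kept an unadjusted p under 0.05 in all 16 fits. With the length trend as an offset they had log2 fold changes of 0.41 and 0.35, and without DMSO replicate 1 they had 0.44 and 0.53.

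The mu-class genes gstm.1, gstm.2 and gstm.3, which lie next to each other with no protein-coding gene between them on the RefSeq assembly GRCz12tu, had unequal values. gstm.3 was at 3.07, 13.1 and 13.8 normalized CPM with DMSO and 30.7, 10.5 and 26.5 with sunitinib. Sunitinib replicate 2 lay below DMSO replicates 2 and 3, and the spread inside each group was wide. The log2 fold change was 1.17 ± 0.44 (SE, edgeR adjusted p = 0.314) and was 0.74 when DMSO replicate 1 was left out and 1.51 when sunitinib replicate 2 was. DESeq2 did not give gstm.3 an unadjusted p under 0.05. gstm.2 had 0.46 ± 0.31 (SE) and gstm.1 had 0.25 ± 0.24 (SE), and without DMSO replicate 1 these were 0.13 and -0.01. All reads of the 47 genes were deposited as whole numbers (282 of 282 values), but how the counting treated reads that fit several of these near copies is not given in the sources used here. Differences between the gstm genes, and between gstp1 and its neighbour gstp2, are therefore uncertain. By gene ID, the rows gstp1 and gstp2 carry the symbols gstp1.2 and gstp1.1 in RefSeq.

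gstp1, the most abundant of the 47, was at 279.3, 516.9 and 548.0 normalized CPM with DMSO and 753.6, 496.5 and 562.7 with sunitinib. DMSO replicate 1 was far below the other DMSO replicates, and the remaining libraries overlapped apart from sunitinib replicate 1. The log2 fold change of 0.43 ± 0.24 (SE, edgeR adjusted p = 0.436) was 0.18 without DMSO replicate 1 and 0.25 without sunitinib replicate 1. The omega-class gene gsto2, whose human counterpart reduces dehydroascorbate, had 0.38 ± 0.20 (SE) with groups that did not overlap in normalized CPM. Its DMSO replicate 1 was also the lowest library, at 21.9 normalized CPM against 41.6 and 38.7, and its lowest sunitinib library was at 42.1. In TPM the groups overlapped, at 25.5, 48.0 and 46.3 with DMSO and 44.9, 53.6 and 46.3 with sunitinib. The log2 fold change of gsto2 was 0.15 without DMSO replicate 1 and 0.19 with the length offset. The other transferases, gsto1 of the omega class, gstt1a, gstt1b and gstt2 of the theta class, gstk1 of the kappa class, gstr of the fish rho class, and gstcd, which carries a related domain, had log2 fold changes of 0.06 to 0.55, with overlapping groups. Of these, gstr had -0.02 without DMSO replicate 1. gsto1 passed the low-count filter through its sunitinib libraries.

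Most transferases were low in DMSO replicate 1. In normalized CPM it was the lowest library for 10 of the 14 tested transferase genes (71.4%), against the 25.2% of all tested genes. On that scale sunitinib replicate 1 was the highest for 11 of the 14 (78.6%, against 19.4%), but in TPM several of them peaked elsewhere. In TPM gsta.1 was at 64.2 in sunitinib replicate 1 and 79.5 in sunitinib replicate 2. gstk1 was at 35.2 in sunitinib replicate 1 and 38.4 in DMSO replicate 2, whereas gstp1 was still highest in sunitinib replicate 1. Set against each gene's mean over the 6 libraries in normalized CPM, the family's median log2 deviation was -0.68, 0.03 and 0.06 in the DMSO replicates. It was 0.42, -0.02 and 0.15 in the sunitinib replicates. Summed TPM of the family was 631.1 in DMSO replicate 1 and 1028.2 and 1101.6 in the other DMSO replicates, against 1172.7, 1090.6 and 1079.6 with sunitinib. Without DMSO replicate 1 the family median was 0.16 with 12 of 14 genes positive, and without sunitinib replicate 1 it was 0.22 with 13 positive. With the length trend as an offset it was 0.21 with 13 positive, and limma tested 13 of them, of which 12 were positive. The same library, DMSO replicate 1, had the lowest sum of skeletal muscle markers, and the part of tissue composition in the transferase values was not tested.

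**Figure D5:**
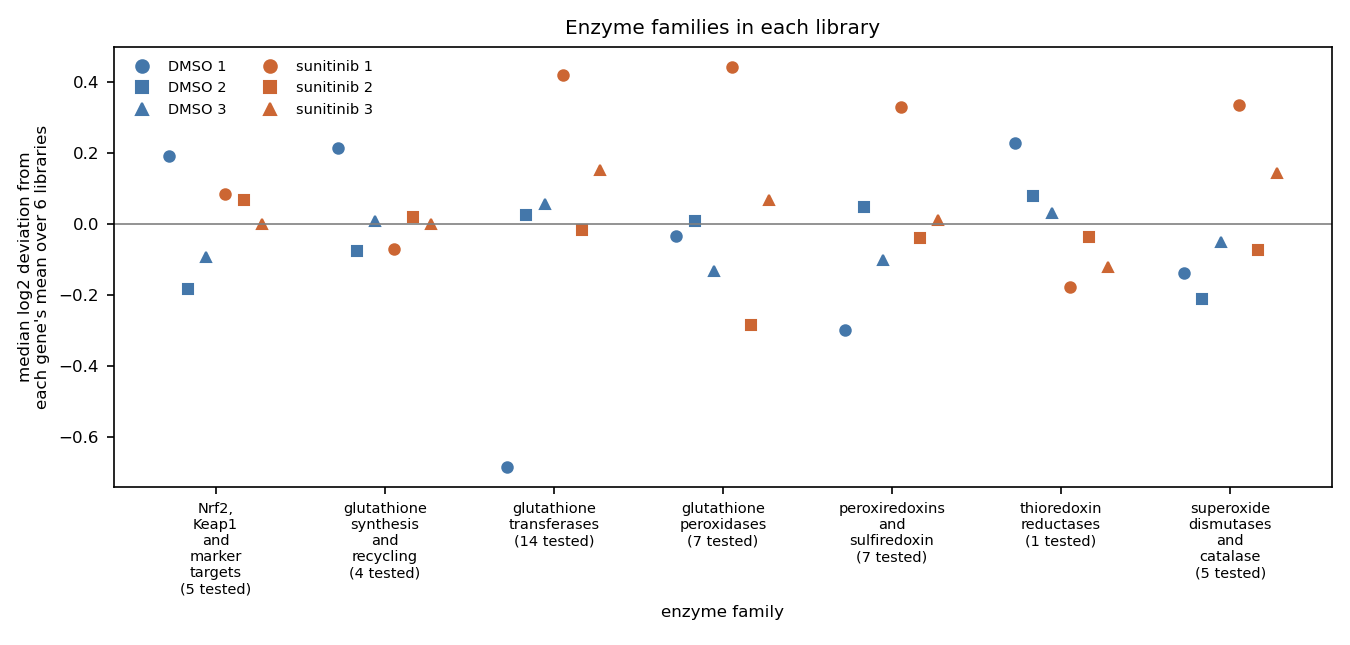
Median over genes of the log2 distance to a gene's own mean over the 6 libraries (y axis) for the tested genes of each family (x axis), with 1 point per library (blue, DMSO; orange, sunitinib; circle, square and triangle for replicates 1, 2 and 3). For the transferases DMSO replicate 1 lies at -0.68 and sunitinib replicate 1 at 0.42, and the other 4 libraries lie between -0.02 and 0.15.

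Of the glutathione peroxidases, gpx1a, a cytosolic selenoprotein that reduces hydrogen peroxide, was at 39.0, 64.7 and 64.0 normalized CPM with DMSO and at 107.6, 72.6 and 94.5 with sunitinib. The groups were apart. The means were 55.9 ± 14.6 (SD, n = 3) and 91.6 ± 17.7 (SD, n = 3), a ratio of 1.64 and a log2 fold change of 0.71 ± 0.20 (SE, edgeR adjusted p = 0.286). The log2 fold change was 0.51 without DMSO replicate 1 and 0.50 with the length trend as an offset, and the unadjusted p stayed under 0.05 in all 16 fits. Its paralog gpx1b, at 4.26, 4.99 and 3.83 normalized CPM with DMSO and 4.99, 3.55 and 4.64 with sunitinib, had a log2 fold change of 0.01 ± 0.21 (SE).

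The abundant gpx4 genes did not move with gpx1a. gpx4a was at 400.9, 172.8 and 158.7 normalized CPM with DMSO and 257.4, 138.5 and 190.8 with sunitinib. DMSO replicate 1 alone was high, and the log2 fold change of -0.32 ± 0.31 (SE, edgeR adjusted p = 0.649) became 0.24 without it. gpx4b was at 292.0, 252.3 and 234.6 with DMSO and 319.7, 202.0 and 271.7 with sunitinib, a log2 fold change of 0.03 ± 0.18 (SE). gpx7 and gpx8, which act in the endoplasmic reticulum, had 0.16 and 0.26 (SE 0.19 and 0.19), of which the first was -0.0006 without DMSO replicate 1, and gpx2, known from the gut epithelium of mammals, had -0.08 ± 0.31 (SE). The groups overlapped for all of them.

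Among the peroxiredoxins, prdx6, which uses glutathione rather than thioredoxin and also has phospholipase activity, was at 40.6, 44.2 and 38.9 normalized CPM with DMSO and 60.7, 49.9 and 48.7 with sunitinib. The groups were apart, with means of 41.2 ± 2.69 (SD, n = 3) and 53.1 ± 6.6 (SD, n = 3) and a log2 fold change of 0.37 ± 0.14 (SE, edgeR adjusted p = 0.317). It was 0.15 with the length trend as an offset (standard error 0.12), where the unadjusted p was not under 0.05. prdx2 was at 290.1, 391.6 and 382.4 normalized CPM with DMSO and 503.4, 392.9 and 430.9 with sunitinib. Its groups did not overlap, but sunitinib replicate 2 exceeded DMSO replicate 2 only narrowly, and the log2 fold change was 0.32 ± 0.17 (SE, edgeR adjusted p = 0.417). It was 0.19 without DMSO replicate 1 and 0.11 with the length offset. Red blood cell markers (14 listed) summed to 43220 to 53270 TPM with DMSO and to 50040 to 57430 with sunitinib, ranges that overlapped, and their part in the prdx2 value was not tested.

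The mitochondrial prdx3 and prdx5 and the endoplasmic reticulum enzyme prdx4 had log2 fold changes of 0.18, 0.22 and 0.20, and the cytosolic prdx1 had 0.0016 ± 0.18 (SE). With the length trend as an offset, prdx3, prdx4 and prdx5 lay at -0.0043, -0.01 and -0.0005, and without sunitinib replicate 1 at 0.11, 0.08 and 0.06. srxn1, sulfiredoxin, which repairs overoxidized peroxiredoxins and is a known Nrf2 target, was at 4.61, 4.43 and 4.37 normalized CPM with DMSO and 4.39, 3.93 and 4.04 with sunitinib, a log2 fold change of -0.12 ± 0.19 (SE, edgeR adjusted p = 0.789).

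txnrd1, thioredoxin reductase, keeps thioredoxin reduced and thereby supplies most peroxiredoxins. In normalized CPM it was the 1 gene of the 47 that was tested and lower in every sunitinib replicate than in any DMSO replicate. It was at 108.0, 97.4 and 94.2 normalized CPM with DMSO and 81.6, 89.9 and 84.9 with sunitinib. In TPM the groups overlapped, at 33.4, 29.5 and 29.4 with DMSO and 19.6, 30.1 and 24.3 with sunitinib. The log2 fold change was -0.22 ± 0.13 (SE, edgeR adjusted p = 0.456), and the unadjusted p was not under 0.05 in any of the 16 fits. The gene ID of this row carries the symbol txnrd3 in RefSeq.

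Superoxide dismutases turn superoxide into hydrogen peroxide. sod1 of the cytosol was at 86.4, 92.0 and 88.8 normalized CPM with DMSO and 120.0, 83.0 and 105.0 with sunitinib, a log2 fold change of 0.20 ± 0.15 (SE, edgeR adjusted p = 0.551). sod2 of the mitochondrial matrix was at 58.3, 79.8 and 73.0 with DMSO and 110.0, 64.4 and 77.6 with sunitinib, a log2 fold change of 0.25 ± 0.19 (SE). In both, sunitinib replicate 1 was highest and sunitinib replicate 2 lay inside or below the DMSO range. Without sunitinib replicate 1 the log2 fold changes were 0.08 for sod1 and 0.02 for sod2, and with the length offset they were -0.0093 and 0.03. cat, catalase, which splits hydrogen peroxide in peroxisomes, was at 53.5, 36.4 and 46.1 with DMSO and 34.2, 40.0 and 45.4 with sunitinib, a log2 fold change of -0.18 ± 0.17 (SE, edgeR adjusted p = 0.616).

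The extracellular form sod3b had 5, 1 and 7 reads with DMSO and 14, 14 and 11 reads with sunitinib. All sunitinib values lay above all DMSO values, with a log2 fold change of 1.55 ± 0.50 (SE, edgeR adjusted p = 0.303), the largest of the 43 in size. It passed the low-count filter through its sunitinib libraries, and the reads are few. Its paralog sod3a, with 48, 31 and 19 reads with DMSO and 36, 55 and 41 reads with sunitinib, had overlapping groups and a log2 fold change of 0.41 ± 0.31 (SE), which was 0.12 when DMSO replicate 3 was left out and 0.80 when DMSO replicate 1 was.

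Other genes of the pathway were taken from lists written from general knowledge, with earlier results of these data known. None of them passed an adjusted p of 0.05 in edgeR. The genes named from each list are those of smallest p, a choice that favours groups that are apart. Their counts at an unadjusted p under 0.05 are to be read beside the shares of all tested genes, 7.51% higher and 6.12% lower. Of 30 tested Nrf2 target genes outside the 47, 6 were higher with sunitinib and none lower by that p (all genes 7.51% and 6.12%), with a median log2 fold change of 0.05. akr7a3, an aldo-keto reductase of aldehyde detoxification, was at 23.7, 24.1 and 22.2 normalized CPM with DMSO and 36.5, 32.9 and 32.7 with sunitinib, a log2 fold change of 0.54 ± 0.13 (SE, edgeR adjusted p = 0.221). The carbonyl reductase gene cbr1l had 0.46 and the ferritin gene fth1b had 0.58 (SE 0.15 and 0.19). In all 3 the groups were apart, as they were in the higher direction for 9.15% of all tested genes. These 3 were named for the smallest p of the list, so their separation is no further support. Of 14 tested partners and regulators of Nrf2, 13 had a negative log2 fold change, where 49.5% of all tested genes had a positive one. Among tested genes longer than the median 32.5% had a positive one, and the part of length in this list was not tested. Of the 14, 1 was lower at an unadjusted p under 0.05, near the share of all genes (6.12%). It was nfe2l1b, which encodes a related transcription factor, with -0.39 ± 0.15 (SE), and -0.26 with the length trend as an offset.

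Of 33 tested genes for selenoproteins and selenocysteine insertion, a group to which several glutathione peroxidases and the thioredoxin reductases also belong, 8 were higher with sunitinib and none lower by that p (all genes 7.51% and 6.12%), with a median of 0.17. sepp1a, selenoprotein P, which carries selenium between tissues, was at 750.3, 798.2 and 665.6 normalized CPM with DMSO and 1028.1, 887.3 and 1112.8 with sunitinib, a log2 fold change of 0.45 ± 0.17 (SE, edgeR adjusted p = 0.313). The groups were apart, and the value was 0.45 with the length trend as an offset. selk, named selenok in RefSeq, had 0.46, and the row sell, named selenol in RefSeq and not the selectin, had 0.47 (SE 0.15 and 0.17). With the length offset selk had 0.24 and sell 0.33. Selenoprotein P is made in quantity by the liver, and hepatocyte markers (16 listed) summed to 6743 to 8625 TPM with DMSO and to 8185 to 10310 with sunitinib. Those ranges overlapped, and their part in the sepp1a value was not tested.

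Among 18 tested genes that produce peroxide or superoxide, 2 were higher and 3 were lower at an unadjusted p under 0.05 (all genes 7.51% and 6.12%), with a median of 0.04. duox, the dual oxidase, was at 3.14, 3.32 and 2.82 normalized CPM with DMSO and 1.86, 1.97 and 2.09 with sunitinib. Its groups were apart, with a log2 fold change of -0.65 ± 0.23 (SE, edgeR adjusted p = 0.307), which was -0.52 with the length trend as an offset and -0.64 without DMSO replicate 1. The other lower genes, aox5 with -0.82 and xdh with -0.50 (SE 0.17 and 0.17), encode an aldehyde oxidase and xanthine dehydrogenase, which in zebrafish larvae also serve the yellow pigment of xanthophores. Pigment cell markers, 13 listed and with aox5 among them, summed to 364.5 to 439.1 TPM with DMSO and to 251.8 to 344.0 with sunitinib, and 5 of the 13 were lower at an unadjusted p under 0.05, as were 6.12% of all tested genes. DESeq2 called aox5 over all genes (adjusted p = 0.0113). The part of pigment cell number in the aox5 and xdh values was not tested.

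In each of the remaining lists, at most 3 genes were higher and at most 3 lower at an unadjusted p under 0.05. Among all tested genes 7.51% were higher and 6.12% lower. Of 17 tested thioredoxins and glutaredoxins 3 were higher and 1 was lower, with a median of 0.10. The thioredoxin-like genes txndc12 and txndc9 had 0.46 and 0.45, and with the length offset 0.46 and 0.29. txnipb, an inhibitor of thioredoxin, was at 36.8, 33.0 and 30.0 normalized CPM with DMSO and 24.3, 26.1 and 26.8 with sunitinib. Its log2 fold change was -0.37 ± 0.14 (SE, edgeR adjusted p = 0.313). Of 22 tested genes of glutathione supply and breakdown 2 were higher, the cystine and amino acid transporter subunit slc3a2b with 0.35 and chac1, which cleaves glutathione, with 0.34, and ggt1b, a gamma-glutamyltransferase, had 0.60 ± 0.36 (SE) without reaching that p. chac1 had 0.21 both without DMSO replicate 1 and with the length offset, and reached that p in 7 of 16 fits, slc3a2b in 10. Of 20 other glutathione enzymes 3 were higher and 3 were lower. clic3, which encodes a protein with a glutathione transferase fold, was at 10.97, 15.9 and 11.2 normalized CPM with DMSO and 23.2, 22.3 and 21.5 with sunitinib, a log2 fold change of 0.81 ± 0.17 (SE, edgeR adjusted p = 0.190), and DESeq2 called it over all genes (adjusted p = 0.0213). hagh, which completes the glyoxalase reaction that uses glutathione, had 0.59, and mgst2, a microsomal glutathione transferase, had -0.70. With the length offset they had 0.49 and -0.91. The groups were apart for hagh and for mgst2, and each reached that p in 16 of 16 fits. Of 18 tested genes of metal and methionine defence 3 were higher and 1 was lower, with a median of 0.24. The higher ones were oxr1b with 0.43, the methionine sulfoxide reductase gene msra, named msraa in RefSeq, with 0.70 and the uncoupling protein gene ucp2 with 0.34. With the length offset they had 0.48, 0.51 and 0.20. The msra groups overlapped, and ucp2 reached that p in 7 of 16 fits.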

How the data were processed

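Transcripts were sequenced as strand-specific libraries, with 150 bp from each end. Quality-filtered reads were placed by the authors on GRCz11, which the submitters' processing notes also name, and summed per gene. The authors deposited estimated counts (92.5% to 93.0% of values whole per library), FPKM, TPM and a normalized read count signal, in which the deposited counts are rounded up and divided by 1 factor per library. The signal and the authors' group averages were not used. Which aligner, counter and annotation release the authors used is not given in the sources used here.

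Estimated counts were rounded and tested with edgeR 4.0.16 in R 4.3.3 (TMM scaling, filterByExpr, quasi-likelihood F-tests, Benjamini-Hochberg adjustment over 17309 genes). The standard error (SE) was the log2 fold change divided by the square root of F. Precision was set by 3 replicates per group and a biological coefficient of variation of 0.153. Symbols absent from the table were matched through the RefSeq symbol of the row's gene ID (23102 of 24923 IDs found). No coordinates are given, since that assembly is not GRCz11.

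The genes named are those with an unadjusted p under 0.05, the 10 of highest mean TPM, the Nrf2, Keap1, glutathione synthesis and marker genes, the smallest p of each family and up to 3 genes per pathway list. The other members, named after their values were seen, account for all 47. Members and lists were chosen with earlier results of these data known. Alternatives were DESeq2 1.42.0, other size factors, other filters, limma 3.58.1 on log2(FPKM + 1) or log2(FPKM + 0.1) where 3 or more libraries reached an FPKM of 1, the replicate number as a block, a lowess curve on effective length (span 0.3) as an offset, and leaving out each replicate. The fits were tested on simulated data.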

Additional observations from a re-analysis of the deposited data

How the results depend on the processing

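Medians and counts here compare sunitinib with DMSO, and no list was tested as a whole. The count of all genes past an adjusted p of 0.05, 0 in edgeR, was 12 without a low-count filter and 43 with DESeq2, and 0 to 3 when a replicate was left out. With limma on log2(FPKM + 1) and log2(FPKM + 0.1), 792 and 785 genes were higher at an unadjusted p under 0.05 against 1300, and DESeq2 had 656 lower against 1059. Leaving out a replicate gave 863 to 1720 higher and 620 to 1368 lower. For the antioxidant genes, DESeq2 called 1 and had 0 lower at an unadjusted p under 0.05 (2.69% of all its genes were lower). limma also had 0 lower at both pseudocounts, but its FPKM filter removed gss, the only lower gene, so that 0 says nothing of gss. Leaving out a replicate gave 5 to 12 higher and 0 to 1 lower, and a median of 0.08 to 0.27. The 12 were without sunitinib replicate 2, where 1250 of all 17654 tested genes were higher and 780 lower. The 5 were without sunitinib replicate 1, where 869 of all 17702 were higher and 710 lower.

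With the length trend as an offset the median was 0.0373 for the antioxidant genes, -0.0043 for the peroxiredoxins, 0.0270 for the dismutases and catalase, -0.0140 for thioredoxins and glutaredoxins, -0.0184 for the other glutathione enzymes, 0.0944 for the Nrf2 targets, 0.0602 for the selenoproteins and 0.1639 for metal and methionine defence. With limma at the larger and the smaller pseudocount it was 0.0349 and 0.0358 for thioredoxins, 0.0313 and 0.0317 for glutathione supply, -0.0062 and -0.0072 for Nrf2 targets, -0.0695 and -0.0773 for peroxide producers (-0.0809 with at least 10 counts in every sample) and 0.1528 and 0.1750 for metal defence. The causes were not tested. Leaving out a replicate gave medians of -0.0525 to 0.1670 for Nrf2, Keap1 and markers, 0.1640 to 0.5183 for transferases, -0.0850 to 0.1929 for glutathione peroxidases, 0.0802 to 0.3131 for peroxiredoxins, 0.0827 to 0.3597 for dismutases and catalase, 0.0104 to 0.1830 for thioredoxins, 0.0509 to 0.1416 for Nrf2 targets, 0.1179 to 0.2883 for selenoproteins, -0.0509 to 0.0951 for peroxide producers and 0.1855 to 0.2975 for metal defence.

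Among named genes, no direction was fixed for nfe2l2a (-0.0060 and -0.0052 with limma, -0.0199 without DMSO replicate 2 and up to 0.1670 with another left out), hmox1a (-0.3624 to 0.2315 with a replicate left out, the latter without DMSO replicate 1), gclm (likewise -0.0198 to 0.1838, the former without DMSO replicate 1), gpx4a (-0.5621 to 0.2380, the latter without DMSO replicate 1), gstt1a (-0.0797 with the length offset, -0.0208 without sunitinib replicate 1 and up to 0.3536 with another left out) and gpx4b (-0.0543 and -0.0544 with limma, -0.2149 with the length offset, -0.0411 without DMSO replicate 3, and -0.1269 to 0.1889 over all replicates left out). With the length offset prdx5, prdx3, sod1 and prdx4 lay at -0.0005, -0.0043, -0.0093 and -0.0126. Further genes also changed sign when a replicate was left out: prdx1 (-0.1610 to 0.1468), gpx2 (-0.4779 to 0.1929), gpx1b (-0.0850 to 0.1441) and gpx7 (-0.0362 to 0.3028). gstm.1 and gstr had -0.0095 and -0.0171 without DMSO replicate 1, and gstcd had -0.0027 and -0.0089 with limma. Of the 43 genes, 5 (nqo1, gsta.1, gstz1, gpx1a and sod3b) kept an unadjusted p under 0.05 in every fit that tested them (11.6%, against 3.23% of all tested genes). Of these, sod3b was tested in 13 of 16 fits and passed the low-count filter only through its sunitinib libraries. Its place among the 5 therefore carries no weight. The fits draw on the same 6 libraries and are not independent of each other. Same-numbered samples of the groups did not deviate together (r of -0.175, -0.098 and 0.019), and with the replicate block 6 antioxidant genes were higher and 1 was lower, with a median of 0.1982, where 5.69% of all tested genes were higher and 4.8% lower.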
